A study of Mus musculus with 18 samples.

Results

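Open chromatin was compared between mouse skeletal muscle myoblasts without MyoD and wild-type myoblasts. The comparison set the MyoD-null peak list, with 100192 peaks on chromosomes 1 to 19, against the wild-type list, with 96420 peaks. Peaks of the 2 lists were called shared when they had 1 bp or more in common. Merging both lists gave 110684 regions, against 139354 regions when all 4 ATAC-seq lists of the series were merged. ATAC-seq inserts sequencing adapters into accessible DNA with a transposase, and a peak is a stretch where more reads piled up than the local background predicts. The series also holds ATAC-seq of differentiating myocytes and RNA-seq of a muscle cell line with less CTCF, a protein that organises chromatin loops. Each myoblast group held 3 samples, taken from MyoD-null mice (titles with MKO) and from wild-type mice (titles with WT). The labels give no age, strain or knockout allele, and they do not say whether the 3 samples of a group came from separate animals. The reads of the 3 samples were merged before peaks were called. Every value below therefore describes 1 list per genotype, carries no error between replicates and has no test. The deletion of the MyoD gene was not checked here, because the gene positions at hand belong to another genome build.

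MyoD is a basic helix-loop-helix transcription factor that binds short E-box sequences in DNA and directs cells into the skeletal muscle lineage. It can open chromatin at its targets and recruits enzymes that acetylate histones. Myoblasts are the dividing precursors that express it before they leave the cell cycle, and the related factor Myf5 is active in the same cells. Mice without MyoD form muscle, while myoblasts cultured from them are known to differentiate poorly. The comparison asks how far the accessible sites of myoblasts differ once MyoD is missing.

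Most listed sites were listed in both genotypes. Of the 110684 merged regions, 83474 or 75.4% (95% Wilson interval 75.2 to 75.7) held peaks of both lists. Another 14907 regions were listed in MyoD-null myoblasts alone and 12303 in wild-type myoblasts alone. As a share of each list, 14.9% of MyoD-null peaks had no overlap with a wild-type peak (interval 14.7 to 15.1). In the opposite direction, 12.8% of wild-type peaks had no overlap with a MyoD-null peak (12.6 to 12.97). These are the background shares for the named sites below. All intervals given cover the counting of peaks or reads alone, since merged samples leave no spread between replicates.

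The longer list also held more unmatched peaks. When both lists were shortened to 96420 peaks by their −log10 p, the unmatched peaks numbered 12643 in MyoD-null and 13656 in wild-type myoblasts. The order of the 2 counts thus depended on list length. Peak shape differed little. Shared peaks with 1 partner on each side had a median width of 437 bp in MyoD-null and 452 bp in wild-type myoblasts. Their summits lay a median of 38 bp apart. A further 636 MyoD-null peaks spanned 2 or more wild-type peaks, while 1773 wild-type peaks spanned 2 or more MyoD-null peaks, so wild-type peaks more often covered several peaks of the other list. The covered length came to 50.3 Mb in MyoD-null and 51.1 Mb in wild-type myoblasts.

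Read depth can be read back from the lists. The fold enrichment is the summit pileup plus 1 over the background plus 1, and the deposited p is the Poisson probability of a higher pileup. Both deposited values fixed a whole-number pileup and a background for every peak, to within 0.001 in −log10 p. The genome-wide background was 8.54 reads per base in MyoD-null and 8.18 in wild-type myoblasts. The median summit held 47 reads in MyoD-null and 45 in wild-type myoblasts, and the lowest listed summit held 21 reads in MyoD-null and 20 in wild-type myoblasts. A site missing from a list may still be open, since fewer reads than that were not detectable.

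Over 10 kb windows with more than 600 reads in both lists, the 2 myoblast lists differed by little more than counting error. Windows with fewer reads in either list were left out, which can narrow the spread in the lowest range. Local backgrounds above the genome-wide level were whole multiples of 0.02 (within 5% of a step), which was taken as 1 read in a 10 kb window. At shared peaks with summits at most 50 bp apart and 600 to 800 reads per window, the log2 ratio of reads in the window, MyoD-null over wild type, had an SD of 0.09, and counting alone gives 0.08. With 1200 to 2000 reads the SD was 0.07, against 0.05 from counting. Over 3 ranges of read number, the spread was 1.15 to 1.25 times that of counting. For the 5 other pairs among the 4 lists, which all involve a myocyte list, it was 2.17 to 4.94 times that of counting.

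**Figure D1:**
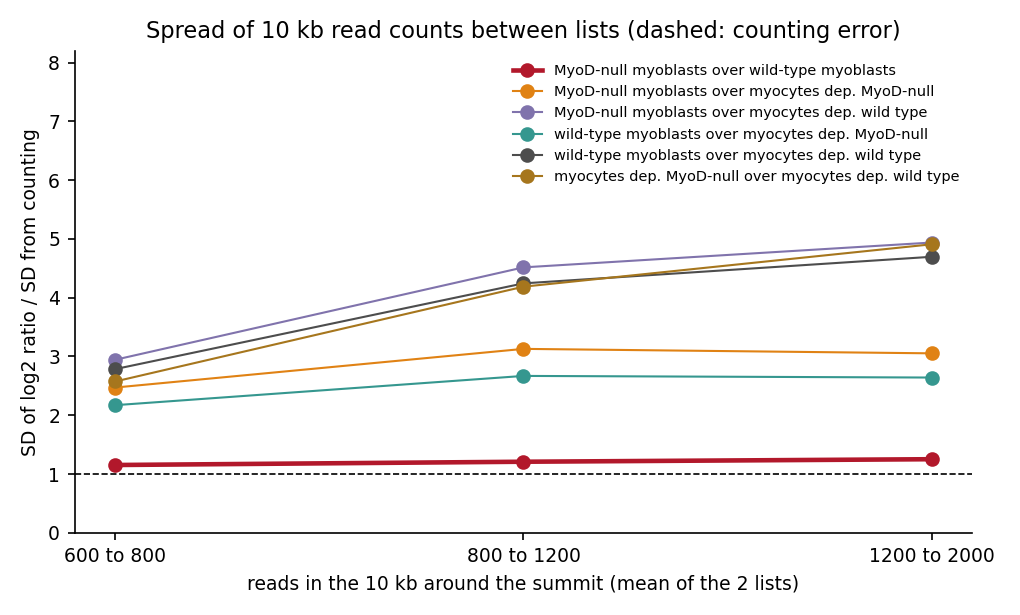
Spread of read counts in 10 kb windows between 2 lists, as the SD of the log2 ratio over shared peaks divided by the SD expected from counting (vertical axis), against the number of reads in the window (horizontal axis); each line is 1 pair of lists, and "dep." means deposited as. Windows with 600 reads or fewer in either list were left out. The line of MyoD-null over wild-type myoblasts stays between 1.15 and 1.25, and the other 5 lines lie between 2.17 and 4.94.

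At the summits the agreement was closer than independent counts would give. The log2 ratio of summit pileups over 81135 shared pairs had an SD of 0.21, where counting gives 0.29. The ratio of both SDs was 0.553 to 0.744 over 5 ranges of pileup. Among the other pairs of lists, 7 of 25 such values lay below 1, mostly at pileups of 20 to 30 reads, and the highest was 2.21. The counting SD treats the reads at a summit as independent and ignores that a summit is the highest point of its peak. Why the myoblast lists stayed below it was not tested. The lists do not show whether the 2 merged alignments had reads in common or had duplicate reads removed. The closeness of the lists, and every ratio between the genotypes below, can be read as a likeness of the cells only if the reads were separate.

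Unmatched peaks were weak ones in both genotypes. Unmatched summits held a median of 31 reads in MyoD-null and 29 reads in wild-type myoblasts. Shared summits held 51 reads in MyoD-null and 48 reads in wild-type myoblasts. The median widths of unmatched peaks were 250 bp in MyoD-null and 255 bp in wild-type myoblasts, and those of shared peaks were 439 bp in MyoD-null and 459 bp in wild-type myoblasts. Each list was divided by fold enrichment into 10 bins of equal size. In the weakest bin, 40.6% (39.6 to 41.5) of MyoD-null peaks and 34.8% (33.9 to 35.8) of wild-type peaks were unmatched. In the fifth bin the shares were 13.3% (12.7 to 14.02) in MyoD-null and 11.004% (10.4 to 11.6) in wild-type myoblasts. In the seventh they were 1.46% in MyoD-null and 1.57% in wild-type myoblasts, and the intervals overlapped.

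The strongest bin differed between the genotypes by a few peaks. None of its 10020 MyoD-null peaks was unmatched (Wilson interval 0 to 0.0383%, and a count of 0 allows up to 0.0299% by the limit of 3 counts), while 7 of 9642 wild-type peaks were, or 0.0726% (Wilson interval 0.0352 to 0.150). The 2 Wilson intervals overlapped. At a fold enrichment of 5 or more, 6 of 24140 MyoD-null peaks and 22 of 23495 wild-type peaks had no overlap in the whole other list. Strong sites missing from 1 genotype were thus few, and most of those counted stood in the wild-type list.

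**Figure D2:**
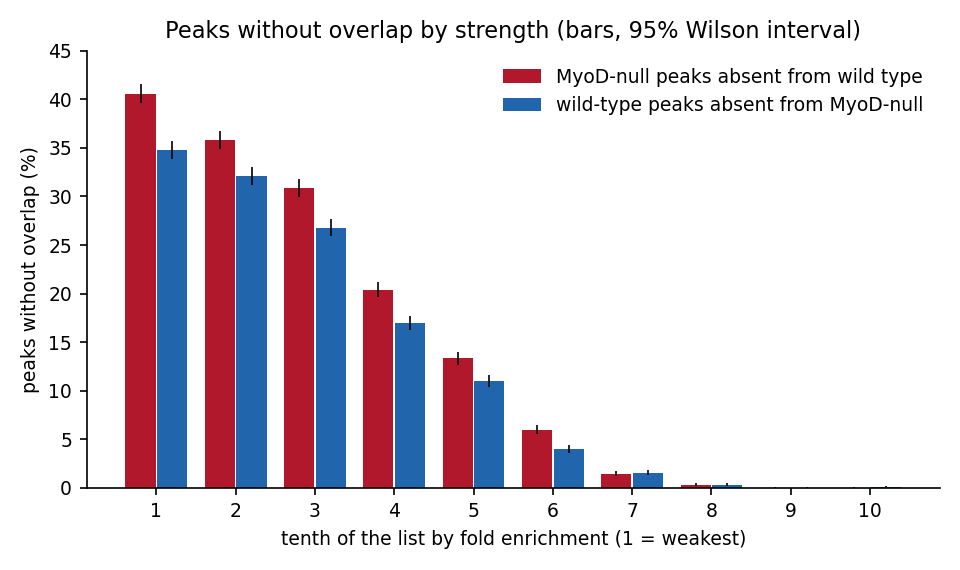
Share of peaks without overlap in the other myoblast list (vertical axis, percent) in 10 bins of each list by fold enrichment (horizontal axis, bin 1 is the weakest); bars are MyoD-null peaks (left) and wild-type peaks (right) with 95% Wilson intervals. The shares are 1.46% in MyoD-null and 1.57% in wild-type myoblasts in the seventh bin, and 0 in MyoD-null and 0.0726% in wild-type myoblasts in the strongest.

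The summit pileups of unmatched sites were set against the detection limit of the other list. At the local background of each site, scaled to the depth of the other library, the highest pileup that would still have gone unlisted was computed. Scaled for depth, unmatched MyoD-null summits stood a median of 1.41 times above that limit, and so did wild-type summits. A factor of 2 or more was reached by 135 of the 14907 MyoD-null sites, or 0.906%, and by 113 of the 12303 wild-type sites, or 0.918%. A factor of 3 was reached by 0 MyoD-null sites and 7 wild-type sites. The limit assumes that only the p threshold kept a site out and that local backgrounds differed between the genotypes by depth alone. The factors include no counting error of the observed summits. The sites were also picked for being listed in 1 genotype alone, so the genotypes need not differ by these factors.

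The 10 strongest MyoD-null peaks without a wild-type counterpart had fold enrichments of 4.93 to 5.34 and pileups of 46 to 51 reads. Coordinates are mm9, count from 1 and are not assigned to genes. The first was at chr5:98537535-98537854, with 50 reads, and the nearest wild-type peak was 29451 bp away. A pileup of 19 reads would have gone unlisted there in wild-type myoblasts, 2.52 times below the scaled MyoD-null value. Next came chr15:37115858-37116323 with 51 reads, and chr4:58317468-58317757, chr5:111506318-111506608 and chr14:47668836-47669171 with 48 reads each. The sites at chr8:19767043-19767269 and chr2:154796575-154796858 had 47 reads each, and no myocyte list held them. The sites at chr1:189179806-189180353, chr6:31753284-31753507 and chr8:126134017-126134232 had 46 reads each.

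The 10 strongest wild-type peaks without a MyoD-null counterpart reached higher fold enrichments, from 5.45 to 9.80. The strongest was at chr4:88403049-88403832, with 124 reads at its summit over a local background of 11.8. No MyoD-null peak lay within 18342 bp, and a pileup of 25 reads would still have gone unlisted there, 5.18 times below the scaled wild-type value. The peaks at chr4:88409308-88409782, with 82 reads and a fold of 9.04, and at chr4:88406356-88406690, with 96 reads and a fold of 6.55, stood beside it.

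These 3 peaks formed 1 cluster. Between 88384706 and 88513296 on chromosome 4 the MyoD-null list held no peak, and the wild-type list held only those 3 within about the same bounds. The 2 nearest shared sites to the left were listed in both genotypes at slightly higher folds in MyoD-null myoblasts, and sites to the right are not described here. At chr4:88367698-88368669 the MyoD-null fold was 8.39 with 115 reads, and the wild-type peak from 88367690 had 7.76 with 106 reads. At chr4:88384472-88384706 it was 4.51 with 42 reads in MyoD-null, against 3.70 with 33 reads in wild-type myoblasts (both flanking sites were picked with their values known). The myocytes deposited as MyoD-null had all 3 sites in their list, and those deposited as wild type had none.

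The other 7 sites lay apart from each other. The peak at chr5:105000401-105000970 had 69 reads and a fold of 7.63. No MyoD-null peak was within 62371 bp on its left or 388421 bp on its right. At chr14:62375943-62376731 the summit held 73 reads with a fold of 7.58. It was listed in both sets of myocytes, with folds of 9.40 (deposited as MyoD-null) and 11.3 (deposited as wild type). The remaining ones were at chr4:138886433-138886931 with 68 reads, chr11:31069149-31070359 with 59 reads, chr7:91898293-91898790 with 55 reads, and chr4:100151266-100151792 and chr7:99980993-99981420 with 49 reads each. The chromosome 11 peak was the broadest of the 10, at 1211 bp.

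**Figure D3:**
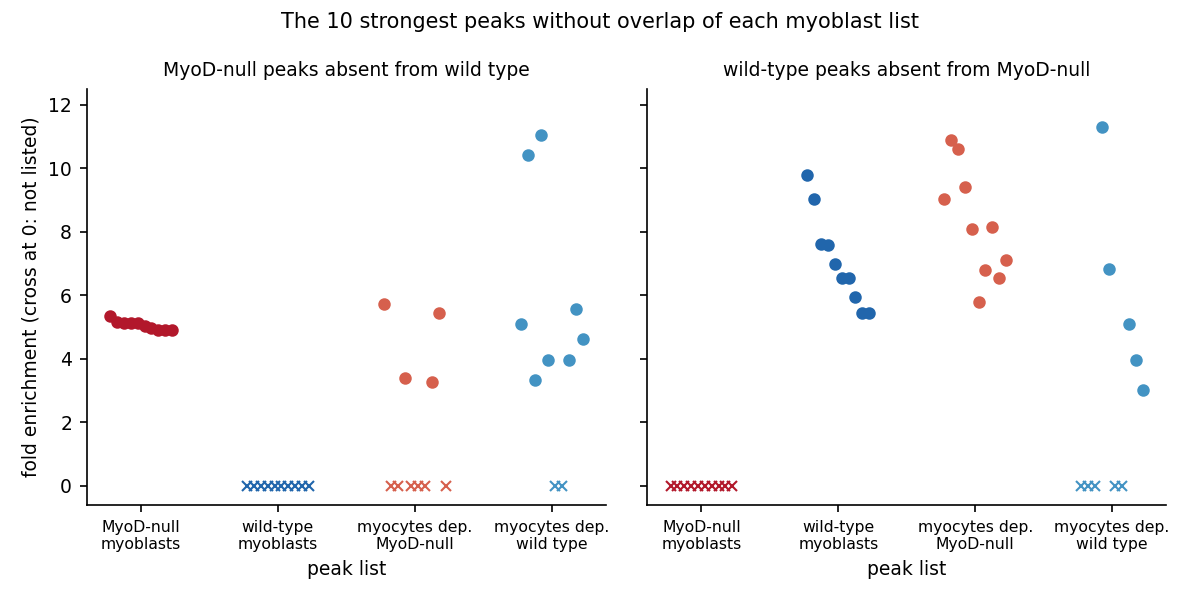
Fold enrichment (vertical axis) of the 10 strongest peaks without overlap of the MyoD-null list (left panel) and of the wild-type list (right panel) in each of the 4 peak lists (horizontal axis, "dep." means deposited as); 1 point is 1 site, and a cross at 0 marks a site that the list does not hold. All 10 wild-type sites have a peak in the myocytes deposited as MyoD-null and 5 of them in those deposited as wild type.

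Peaks shared by both genotypes were close in strength. Over 81135 pairs with 1 peak on each side, the median log2 ratio of fold enrichment, MyoD-null over wild type, was 0.02. The middle 90% of pairs had ratios of 0.809 to 1.26, and 90.04% of pairs differed by less than 1.25-fold. In MyoD-null myoblasts 331 pairs, or 0.408%, were at least 1.5 times higher, and 198 pairs, or 0.244%, were at least 1.5 times lower. At 2-fold, 0 pairs were higher and 5 were lower. Among the 26293 pairs with a fold of 5 or more in either list, 130 pairs (0.494%) were at least 1.5 times higher and 77 (0.293%) at least 1.5 times lower. Centring the ratios on their median moved the split over all pairs to 278 higher and 242 lower.

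**Figure D4:**
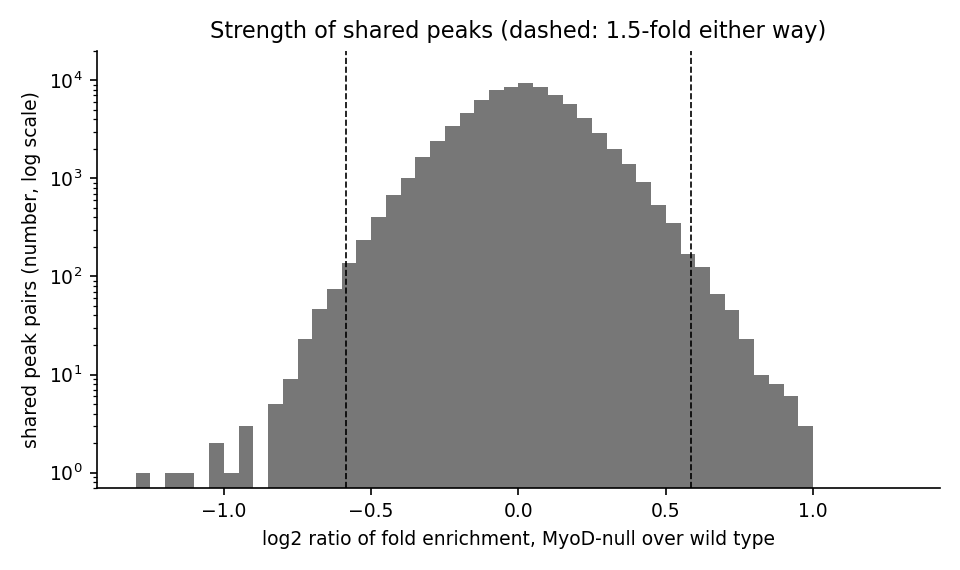
Number of shared peak pairs (vertical axis, log scale) by log2 ratio of fold enrichment, MyoD-null over wild type (horizontal axis, bins of 0.05); dashed lines mark 1.5-fold either way. The median lies at 0.02, 331 pairs lie beyond the right line and 198 beyond the left one.

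The pairs most reduced in MyoD-null myoblasts, among those with a fold of 5 or more in either list, lay on 8 chromosomes. Shared sites are given by the coordinates of the MyoD-null peak. At chr17:22362377-22362820 the fold was 3.67 with 34 reads in MyoD-null, against 8.82 with 80 reads in wild-type myoblasts. The depth-scaled ratio of pileups was 0.407 (exact 95% binomial interval 0.264 to 0.615). At chr6:118682028-118682314 it was 3.88 with 36 reads in MyoD-null and 8.81 with 85 reads in wild-type myoblasts, a ratio of 0.406 (0.267 to 0.606). At chr8:71499780-71500024 the MyoD-null fold was 2.72 with 25 reads and the wild-type fold 5.99 with 54 reads. At chr4:76814804-76815003 the MyoD-null summit held 30 reads and the wild-type summit 60. The next were at chr13:101364130-101364458, chr9:121062452-121062652, chr16:45644672-45644871 and chr12:84188041-84188401, with log2 fold ratios of -0.98, -0.94, -0.91 and -0.80. The upper bound of the pileup ratio was highest at the chromosome 12 site, at 0.923. The 8 sites were picked as extremes of 26293 pairs from the same pileups, so intervals below 1 follow from the choice.

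The pairs most increased in MyoD-null myoblasts reached just under 2-fold. At chr18:77656316-77656681 the fold was 6.71 with 63 reads in MyoD-null, against 3.38 with 30 reads in wild-type myoblasts (depth-scaled pileup ratio 2.01, interval 1.28 to 3.22). At chr5:75299751-75300181 it was 6.92 with 65 reads in MyoD-null and 3.49 with 31 reads in wild-type myoblasts (ratio 2.01, 1.29 to 3.19). The strongest in absolute terms was chr1:128567066-128567483, with a MyoD-null fold of 8.38 and 79 reads, against a wild-type fold of 4.47 and 40 reads. The remaining 5 were at chr4:135666414-135666865, chr11:31817736-31818185, chr4:144601116-144601492, chr15:8271449-8271888 and chr12:32480061-32480396, with log2 fold ratios of 0.92 to 0.96. The lower bound of the pileup ratio was lowest at chr4:135666414-135666865, at 1.07, and these 8 sites too were picked as extremes, so bounds above 1 follow from the choice. The site there had a lower local background in MyoD-null, so its fold ratio of 1.95 exceeded its pileup ratio of 1.70.

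Most unmatched peaks stood alone. Of the unmatched MyoD-null peaks 69.9% stood alone between shared peaks, and of the wild-type ones 73.6%. Runs of 4 or more consecutive unmatched peaks numbered 65 of 12453 (0.522%) in the MyoD-null list and 40 of 10540 (0.380%) in the wild-type list. A peak standing alone counts there as a run of 1. How many longer runs random placement would give was not computed, so clustering was not tested. The nearest peak of the other list lay a median of 4588 bp from an unmatched MyoD-null peak and 4872 bp from an unmatched wild-type peak. Shared peaks had a similar distance to the nearest peak of the other list that they did not overlap, 4708 bp from MyoD-null and 4553 bp from wild-type peaks. Within 1 kb of a peak of the other list lay 18.1% of unmatched MyoD-null and 17.6% of unmatched wild-type peaks.

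The longest runs of both lists fell in the same stretch of chromosome 4. There the MyoD-null list had 6 consecutive unmatched peaks from 127486427 to 128006908, and the wild-type list had 7 from 127532992 to 127995498. The peaks of the 2 lists interleaved without touching. The MyoD-null peaks had 24 to 34 reads and folds of 2.59 to 3.61. The wild-type peaks had 23 to 55 reads and folds of 2.61 to 5.12, the strongest being chr4:127966835-127967191. In the myocyte lists none of the MyoD-null peaks was present, and 1 of the 7 wild-type peaks was, in the one deposited as MyoD-null.

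Other runs were weak as well. In MyoD-null myoblasts the next 3 runs had 5 peaks each, at chr9:98710149-98845036, chr8:73465390-73489037 and chr6:34914717-34938358, with at most 41 reads. In wild-type myoblasts the next 3 had 6 peaks each, at chr16:93037151-93093211, chr4:13771783-14434024 and chr12:87669849-87706767, with at most 39 reads. Of the 6 peaks on chromosome 16, 4 were also listed in each of the 2 sets of myocytes.

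Differences were spread over all 19 chromosomes. The share of unmatched MyoD-null peaks ran from 13.4% on chromosome 19 to 16.02% on chromosome 5. The share of unmatched wild-type peaks ran from 11.2% on chromosome 11 to 14.96% on chromosome 14. Chromosome 14 had nearly equal shares, 15.04% in MyoD-null (13.9 to 16.2) and 14.96% in wild-type myoblasts (13.9 to 16.1). On chromosome 11 they were 14.1% in MyoD-null (13.3 to 14.9) and 11.2% in wild-type myoblasts (10.4 to 11.9). The median log2 fold ratio of shared pairs ran from 0.0077 on chromosome 2 to 0.0271 on chromosome 16.

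**Figure D5:**
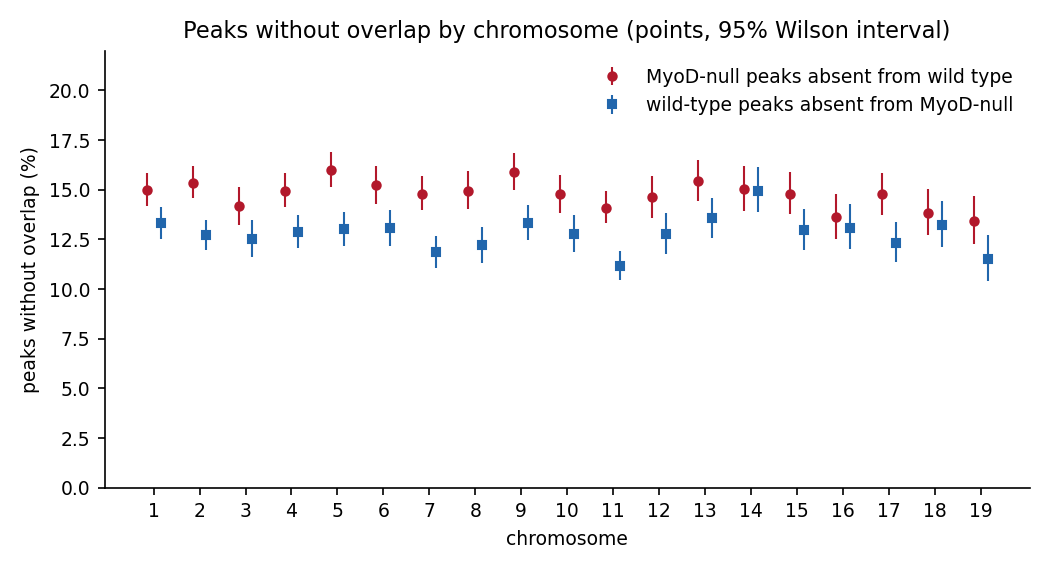
Share of peaks without overlap in the other myoblast list (vertical axis, percent) by chromosome (horizontal axis); points are MyoD-null peaks (circles) and wild-type peaks (squares) with 95% Wilson intervals. MyoD-null shares lie between 13.4% and 16.02% and wild-type shares between 11.2% and 14.96%.

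In windows of 1 Mb the same evenness held. Among 1740 windows with 10 or more shared pairs, the median log2 ratio lay within 0.1 of 0 in 95.2%. The lowest median, -0.23, was in the window on chromosome 17 from 22000001 to 23000000, where 9 of 13 pairs were lower in MyoD-null myoblasts. This window holds the site with the largest reduction named above. The highest median, 0.18, was on chromosome 19 from 15000001 to 16000000, where 9 of 11 pairs were higher in MyoD-null myoblasts. Both windows were picked for their extreme medians.

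The 2 myocyte lists of the series, from cells after 24 h of differentiation, gave separate libraries for the same sites. Label and peak names disagree on their genotype. Peaks named WT-DM stand in the list whose label is MyoD-null, and peaks named MKO-DM in the one whose label is wild type. They are given here by the deposited label. Unmatched MyoD-null myoblast peaks overlapped the myocytes deposited as MyoD-null in 25.9% (25.2 to 26.6) and those deposited as wild type in 40.1% of cases (39.3 to 40.9). Unmatched wild-type myoblast peaks overlapped the myocytes deposited as MyoD-null in 35.2% (34.4 to 36.1) and those deposited as wild type in 47.1% of cases (46.2 to 47.97). Shared peaks of either myoblast list were found in 83.8% of cases in the first of these lists, deposited as MyoD-null, and in 87.0% in the list deposited as wild type. Peaks seen in neither myocyte list made up 51.6% of the unmatched MyoD-null peaks and 42.6% of the unmatched wild-type peaks. Among shared peaks they made up 7.83% in MyoD-null and 7.85% in wild-type myoblasts.

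The gap to shared peaks remained at like fold enrichment. Peak width was not matched, and over all folds unmatched peaks were the narrower ones. For folds from 3 to 4, unmatched peaks overlapped the myocytes deposited as MyoD-null in 24.7% (23.6 to 25.8) of MyoD-null and 37.1% (35.8 to 38.4) of wild-type cases. Shared peaks of that fold did so in 74.5% of MyoD-null and 74.7% of wild-type cases. Overlap with the myocytes deposited as wild type was 40.5% (39.3 to 41.7) for unmatched MyoD-null and 49.1% (47.7 to 50.5) for unmatched wild-type peaks of that fold. For shared peaks of that fold it was 80.4% in MyoD-null and 80.5% in wild-type myoblasts. The list deposited as wild type is the longer one. Over unmatched peaks of all folds, its overlap was 40.1% for MyoD-null and 47.1% for wild-type peaks. With myocyte lists of equal length these shares were 26.8% for MyoD-null and 31.1% for wild-type peaks.

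Sites that stood at least 2 times above the detection limit of the other myoblast list divided further. Of the 135 MyoD-null sites, 45.2% (37.04 to 53.6) had a peak in the myocytes deposited as MyoD-null and 66.7% (58.4 to 74.1) in those deposited as wild type. Of the 113 wild-type sites, 78.8% (70.3 to 85.3) had one in the myocytes deposited as MyoD-null and 61.9% (52.7 to 70.4) in those deposited as wild type. Of the 10 strongest MyoD-null sites, 4 were in the myocytes deposited as MyoD-null and 8 in those deposited as wild type. By the peak names, the myocyte list holding more of each of these sets has the same genotype as the myoblasts the set came from. The whole unmatched wild-type set went the other way, with 47.1% in the list deposited as wild type and 35.2% in the other list. At equal list length these shares were 31.1% and 35.2%. The smaller sets were not recounted at equal length, although the list deposited as wild type is the longer one.

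Shared sites with a difference in strength were also set against the myocytes. Of all 81135 shared pairs, 63480 (78.2%) were in both myocyte lists. Of the 331 pairs at least 1.5 times higher in MyoD-null myoblasts, 185 (55.9%) were. Pairs missing from a myocyte list have no myocyte ratio and were left out. For the 185 pairs, the log2 ratio, deposited MyoD-null over deposited wild type, had a median of -0.34. All shared pairs had -0.16, and 117 of the 185 lay below that value. Of the 198 pairs at least 1.5 times lower, 137 (69.2%) were in both myocyte lists. Their median was -0.19, and 71 of 137 lay below the value of all shared pairs. Among pairs with a fold of 5 or more in either myoblast list, 91 of 130 higher ones (70%) and 68 of 77 lower ones (88.3%) were in both. Of these, 65 of the 91 higher ones lay below the value of all shared pairs. The lower ones divided evenly, with 34 above and 34 below.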

How the data were processed

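The authors deposited 1 narrowPeak list per group of 3 ATAC-seq samples. MACS2, deepTools and the build mm9 are named per the submitters' processing notes, without versions. Per the peak names, reads were merged with a MAPQ30 tag before calling. No aligner, caller setting or shift of reads for the transposase is given in the sources used here. The deposited fold enrichment is a ratio of summit pileup to local background. Every peak also carries a −log10 p and a −log10 q, as deposited, and in the myoblast lists q on that scale starts at 2.02. The deposited score follows the −log10 q and was not used.

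Peaks on chromosomes 1 to 19 were kept. Overlaps, pileups, ratios and runs were computed in Python 3.11.15 with numpy 2.4.6, pandas 2.3.3 and scipy 1.17.1, Wilson intervals with statsmodels 0.14.6 and figures with matplotlib 3.10.9. Of 5 known quantities in 20000 simulated peaks, all but the longest run were recovered within 1 percent. The longest run was required only to be at least as long as the one simulated, and it was. Named sites were the 10 strongest unmatched peaks per list, the 8 most extreme shared pairs each way with a fold of 5 or more in either list, and the 4 longest runs per list. The comparison, sites and alternatives were chosen with earlier results of these data known. Gene positions at hand were GRCm38, so genes, gene lists and E-box letters were not analysed here. The 6 RNA-seq samples were not used here.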

Additional observations from a re-analysis of the deposited data

Results flagged for a closer look

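The 16 named shared sites were set beside the 2 myocyte lists. Of the 14 listed in both, 12 had a log2 fold ratio (deposited MyoD-null over deposited wild type) of the opposite sign to the myoblast ratio, and 9 of these were past 1.5-fold. Over all shared pairs of the 2 myocyte lists, 2.49% were at least 1.5 times higher and 13.7% at least 1.5 times lower in the list deposited as MyoD-null, with a median of -0.16, so a negative ratio was the more common one to begin with. With 1 list per group none of these differences was tested. Read by peak names, the 12 signs are those of the myoblasts, but these are extreme pairs. Of the 68 pairs lower by 1.5-fold in MyoD-null myoblasts with a fold of 5 or more in either list and a peak in both myocyte lists, 34 lay above and 34 below the median myocyte ratio of the shared myoblast pairs.

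Among sites lower in MyoD-null myoblasts, the myocyte ratio was 1.32 at the chromosome 6 site, 0.76 at the chromosome 13 site and 0.72 at the chromosome 16 site. Among sites higher in MyoD-null myoblasts, it was -1.06 on chromosome 18, -1.12 on chromosome 5, -0.77 at chr4:135666414-135666865, -1.34 on chromosome 15, -1.24 on chromosome 12 and -1.58 on chromosome 1. The chromosome 1 site had folds of 3.68 in the myocytes deposited as MyoD-null and 10.98 in those deposited as wild type.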

How the results depend on the processing

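The median log2 ratio, the only recomputed value that could change sign, did not become negative. At equal list length the unmatched counts changed order, to 12643 in MyoD-null and 13656 in wild-type myoblasts. Of 36 recomputed values 21 stayed within the tolerance, which for counts is a factor of 1.5. Some of these outcomes were fixed in advance. At equal length of the myocyte lists, shares in the one deposited as MyoD-null could not change, since it is the shorter list. Centring can only give a median of 0. Within the tolerance, unmatched peaks numbered 20168 in MyoD-null and 16396 in wild-type myoblasts at a reciprocal overlap of 50%. Also within it, with both lists cut to a −log10 q of 5 or more, they numbered 14601 of 91762 (15.9%) in MyoD-null myoblasts. In wild-type myoblasts they numbered 9284 of 85500 (10.9%) under that cut. Under that cut the other genotype can hold a weaker peak at the same place. No paired analysis was possible because replicates were merged before peak calling, and no replicate could be left out for the same reason. With both lists cut to a fold of 5, the lists were shorter and fewer peaks were unmatched. They numbered 3744 of 24140 (15.5%) in MyoD-null and 3117 of 23495 (13.3%) in wild-type myoblasts. These shares lay near the 14.9% and 12.8% of the whole lists, though the other genotype can hold a weaker peak at the same place. Strict peaks (−log10 q of 5 or more) without overlap in the whole other list numbered 10295 of 91762 (11.2%) in MyoD-null myoblasts. In wild-type myoblasts they numbered 7078 of 85500 (8.28%). With summits at most 50 bp apart, 168 pairs were at least 1.5 times higher and 103 at least 1.5 times lower in MyoD-null myoblasts. Fewer pairs (48063) were then left, and the shares were also smaller, 0.350% higher and 0.214% lower. At 2-fold, 0 pairs were higher and 5 lower. Centring set the median log2 ratio to 0. Depth-scaled pileups, an alternative added after the data were seen, gave a median of 0.024. By 1.5-fold, 512 pairs (0.631%) were then higher and 291 (0.359%) lower in MyoD-null myoblasts. Both counts were above the 331 and 198 from fold enrichment, and the cause was not tested. The highest wild-type share of any chromosome was 12.4% among peaks with a −log10 q of 5 or more. Under a summit distance of 250 bp, more peaks counted as unmatched. Runs of 4 or more then numbered 110 of 15317 (0.718%) in MyoD-null and 68 of 12653 (0.537%) in wild-type myoblasts. With myocyte lists of equal length, the myocytes deposited as wild type held 26.8% of unmatched MyoD-null and 31.1% of unmatched wild-type peaks. Depth limits weak sites most, since a summit below about 20 reads was not listed.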
